A study of Mus musculus with 42 samples.

Results

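The cornified envelope genes described here are those for the protein shell of the outermost epidermal cells, measured in wounds of diabetic mice given IL-22-Fc, VEGF or PDGF. They were chosen by name: every gene whose symbol begins with Lce or Sprr, with Lor, Flg, Ivl, Hrnr, Rptn, Cdsn, Tgm1, Tgm3, Tgm5, Krtdap, Sbsn, Cnfn, Casp14, Asprv1, Calml3, Evpl and Ppl. This gave 41 genes that had a probe set annotated to that gene alone, each read by 1 of the 20672 probe sets in the table. They comprise 9 small proline-rich (Sprr) genes, 15 late cornified envelope (Lce) genes and 17 others, and another 16 genes that fit the rule, among them Flg2, Crnn and Sprr2a1, were not analysed here.

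The cornified envelope is assembled beneath the plasma membrane of keratinocytes as they leave the living layers of the epidermis. Envoplakin and periplakin form a scaffold, involucrin is laid down on it, and transglutaminases cross-link loricrin, the Sprr proteins and the Lce proteins into a rigid shell, while filaggrin packs the keratin filaments inside. Many of the precursor genes lie side by side in the epidermal differentiation complex. Loricrin and filaggrin are known as genes of resting, fully stratified epidermis, whereas the Sprr2 and Lce3 genes are known to be induced in wounded and inflamed epidermis, and IL-22 is a cytokine whose receptor is carried by keratinocytes and other epithelial cells.

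Expression was measured on 42 Affymetrix Mouse430V2 arrays. The wounds were made on female db/db mice, which lack a working leptin receptor and are obese and diabetic, and all wound groups share that genotype. The strain label of all samples, including these, reads C57BL/6, whereas the study's methods give the db/db mice as BKS.Cg-Dock7m Leprdb/+ +/J. After 1 topical dose, skin was taken at 24 h from the control (4 arrays), IL-22-Fc, VEGF and PDGF groups (5 arrays each). After repeated doses from day 0, the skin around the wound was taken on day 7 from the control, IL-22-Fc and VEGF groups (5 arrays each) and the PDGF group (3 arrays). IL-22-Fc is the cytokine joined to an antibody Fc part, and VEGF and PDGF are growth factors for blood vessels and for connective tissue cells. For the control wounds, the labels name an antibody against ragweed, whereas the protocol names a control Fc. Doses in the labels are 50 µg of IL-22-Fc at 24 h, 50 µg of PDGF and 20 µg of VEGF, whereas the design text gives 20 µg of IL-22-Fc and the study's methods 50 µg of every protein, so the doses of IL-22-Fc and VEGF are not settled. Untreated skin (5 arrays, labelled day 0) comes without a stated genotype or sex, so wounding, genotype and processing batch cannot be told apart in comparisons with it. The design lists 5 mice a group, but the labels tie no array to an animal, so the p-values measure the spread between arrays.

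All levels below are log2 of the intensity after RMA, a normalization that equalizes arrays, and a difference of 1 is a 2-fold change. A gene is said to have risen or fallen where limma gave an adjusted p under 0.05 over all 20672 probe sets. As a gauge of background, 5 probe sets for Y-linked genes, which female mice lack, read 2.31 to 3.78. In keeping with the label of skin, the summed level of 8 basal keratinocyte markers was at least 13.1 on every array. Lce1g was at or below that gauge on all 5 arrays of untreated skin and all 4 control arrays at 24 h, Sprr2f on 3 and Sprr1b and Sprr2i on 2 of the untreated arrays, so fold changes from those groups understate the difference. The 3 PDGF arrays of day 7 had a low level of the 5′ Gapdh control probe set, a sign of RNA integrity (11.48 ± 0.19 (SD, n = 3) against 12.90 ± 0.06 (SD, n = 5) in the control), and replicate 5 of untreated skin read 11.14. Replicate 1 of IL-22-Fc at 24 h was the highest of its group for 27 of the 41 genes, and the share over all probe sets was not counted. Because the Sprr2 genes and the Lce genes are close copies of each other, a probe set can also bind transcripts of its relatives, and 8 of the 41 carry the suffix that marks shared probes (Lce1m, Lor, Sprr2h, Lce1d, Lce1h, Lce1i, Lce3b and Lce3c).

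The promoters of genes from the families that moved in opposite directions under IL-22-Fc are shown to let their sequences be read beside their values. Each is the 120 bases before the transcription start in RefSeq (GRCm38.p6), 5′ to 3′ on the gene's strand. Capitals mark the TATA box TATAAA, the AP-1 site TGANTCA and the octamer ATTTGCAT, found on either strand. The genes run from chr3:92339020-92339139 (+) for Sprr2d, chr3:92365067-92365186 (+) for Sprr2f and chr3:92407871-92407990 (+) for Sprr2i to chr3:92926231-92926350 (-) for Lce3a and chr3:92992097-92992216 (+) for Lce3f. The windows of the genes that fell are chr3:92656927-92657046 (-) for Lce1b, chr3:93019062-93019181 (-) for Lce1m, chr3:92083143-92083262 (-) for Lor and chr3:93273426-93273545 (+) for Flg.
Sprr2d: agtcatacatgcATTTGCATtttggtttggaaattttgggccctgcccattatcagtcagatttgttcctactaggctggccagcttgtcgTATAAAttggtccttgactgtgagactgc
Sprr2f: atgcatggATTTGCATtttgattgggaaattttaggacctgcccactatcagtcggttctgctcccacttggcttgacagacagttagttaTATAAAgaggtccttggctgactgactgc
Sprr2i: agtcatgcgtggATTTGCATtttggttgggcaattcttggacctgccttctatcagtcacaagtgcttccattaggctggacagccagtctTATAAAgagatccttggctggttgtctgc
Lce3a: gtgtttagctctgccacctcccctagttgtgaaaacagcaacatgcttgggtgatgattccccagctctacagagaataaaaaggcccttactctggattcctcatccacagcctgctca
Lce3f: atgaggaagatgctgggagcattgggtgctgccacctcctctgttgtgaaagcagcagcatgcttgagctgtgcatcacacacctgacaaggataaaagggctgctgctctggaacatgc
Lce1b: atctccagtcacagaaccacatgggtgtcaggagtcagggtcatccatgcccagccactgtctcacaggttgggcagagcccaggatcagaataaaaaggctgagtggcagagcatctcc
Lce1m: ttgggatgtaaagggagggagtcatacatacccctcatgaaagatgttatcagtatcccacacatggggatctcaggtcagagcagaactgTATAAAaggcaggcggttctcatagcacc
Lor: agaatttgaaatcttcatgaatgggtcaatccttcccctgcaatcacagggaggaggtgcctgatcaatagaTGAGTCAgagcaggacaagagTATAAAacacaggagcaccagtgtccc
Flg: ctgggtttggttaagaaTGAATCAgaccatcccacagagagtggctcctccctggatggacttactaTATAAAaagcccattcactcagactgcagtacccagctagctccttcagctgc

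RefSeq gave promoters for 36 of the 41 genes, and the motifs were searched in the 250 bases before the start. TATAAA was in 17 of the 36 genes (47.2%) and in 12.4% of all 32851 promoters. TGANTCA was in 13 of 36 (36.1%) against 6.75% of all promoters. Within the families, all 5 Sprr2 genes with a promoter held both motifs, none of the 4 Lce3 genes held either, and the 10 Lce1 genes held TATAAA in 2 and TGANTCA in none. The AP-1 motif of Sprr2d, Sprr2f and Sprr2i begins upstream of the windows printed above, and no whole match lies within them. The octamer, searched after the sequences had been read, was in all 5 Sprr2 genes, in no other member and in 1.6% of all promoters. A STAT motif, TTCNNNGAA, was in 3 of the 36 genes (Cdsn, Lce1l and Tgm1) and in 7.02% of all promoters, and no Sprr2 or Lce3 promoter held it in this window. These matches describe letters in a window and were not tested for binding.

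IL-22-Fc against the control on day 7 asked how the cytokine changed the envelope program of the healing wound. Of the 41 genes, 15 rose, 14 fell and 12 did not pass the test, where over all probe sets 2.81% rose and 2.64% fell. All 6 Sprr2 genes rose (median log2 change 2.83), as did all 4 Lce3 genes (median 1.86) and all 3 transglutaminases (median 1.25). Lce1 genes fell in 9 of 11 cases (median of the 11, -0.67), and loricrin, involucrin and filaggrin fell by 2.44, 2.24 and 1.68 on the log2 scale. The median over all probe sets was -0.00 and that of the 41 genes 0.14. Leaving out each array in turn gave 15 genes higher every time and 12 to 15 lower.

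**Figure D1:**
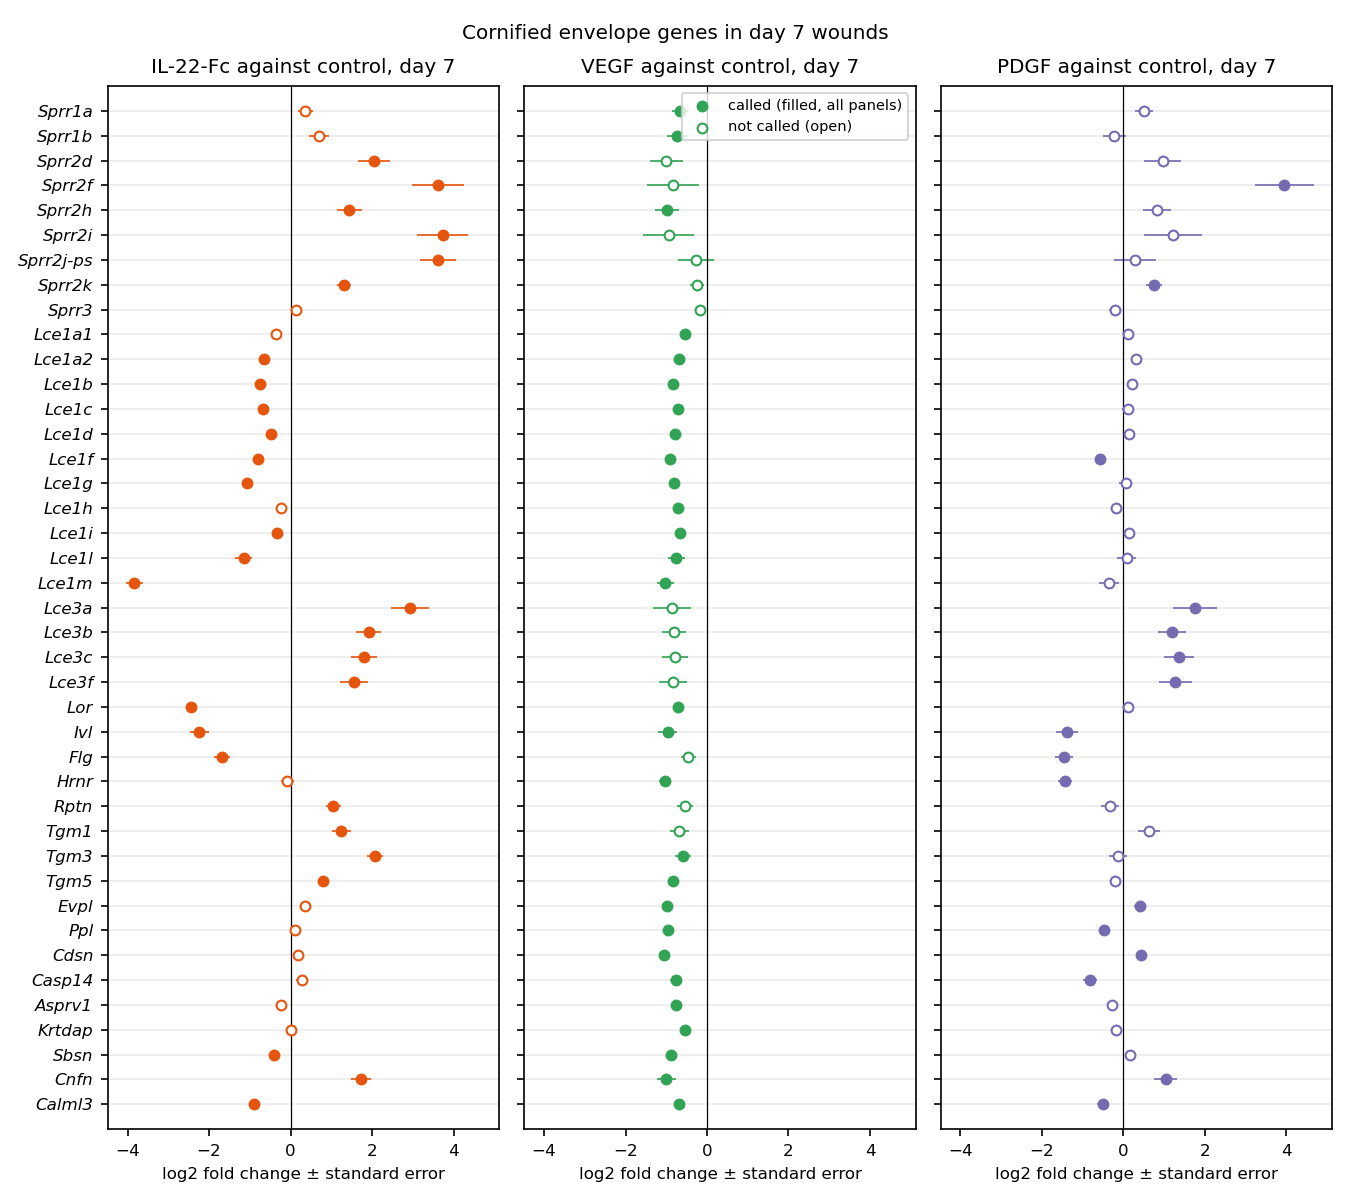
Log2 fold change against the day 7 control (horizontal axis, bars ± standard error) of the 41 cornified envelope genes (vertical axis) for IL-22-Fc, VEGF and PDGF, with filled points for an adjusted p under 0.05. IL-22-Fc moved the Sprr2 and Lce3 genes to the right and Lce1m, Lor, Ivl and Flg to the left, while all 41 points of VEGF lie to the left of 0.

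The Sprr2 genes encode short proline-rich proteins that serve as cross-bridges in the envelope. On the 5 control arrays of day 7 Sprr2f read 7.61, 7.84, 8.33, 8.32 and 6.07, and with IL-22-Fc 10.71, 11.03, 11.19, 11.64 and 11.69. The lowest IL-22-Fc array was above the highest control array, a rise of 3.62 ± 0.63 (SE, adjusted p = 0.0011, limma), or 12.3-fold. For Sprr2i the control arrays read 8.76, 8.48, 9.29, 9.28 and 8.01 and the IL-22-Fc arrays 12.18, 12.46, 12.44, 12.60 and 12.80. Again the groups did not overlap, and the change was 3.74 ± 0.62 (SE, adjusted p = 0.0007, limma). Sprr2j-ps, annotated as a pseudogene, rose by 3.62, from a mean of 7.05 ± 0.58 to 10.66 ± 0.34 (SD, n = 5 each), and Sprr2d, Sprr2h and Sprr2k rose by 2.04, 1.45 and 1.31. The promoters of Sprr2d, Sprr2f and Sprr2i, printed above, share the octamer and the TATA box.

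Sprr1a, Sprr1b and Sprr3, from the same gene family, did not pass the test. Their changes were 0.36, 0.70 and 0.14, with adjusted p of 0.32, 0.11 and 0.59 (limma). Sprr1b read 12.69, 12.42, 12.61, 12.05 and 12.10 in the control and 13.40, 13.02, 12.85, 13.16 and 12.94 with IL-22-Fc, so the arrays did not overlap although the difference missed the threshold.

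The Lce3 genes, known as the wound-induced group of the late envelope proteins, all rose. Lce3a read 9.12, 8.85, 9.03, 9.19 and 7.54 in the control and 11.13, 11.80, 11.82, 11.67 and 11.97 with IL-22-Fc, a change of 2.93 ± 0.46 (SE, adjusted p = 0.00041, limma). Every IL-22-Fc array lay above every control array. Lce3b, Lce3c and Lce3f rose by 1.92, 1.80 and 1.55.

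The Lce1 genes encode late envelope proteins of resting skin, and Lce1m moved farthest of them. Its control arrays read 9.03, 9.00, 9.17, 9.47 and 9.49 and its IL-22-Fc arrays 4.97, 5.61, 5.47, 5.42 and 5.49. The groups were far apart, and the log2 level fell by 3.84 (SE 0.21, adjusted p = 1.8e-10, limma). The other changes of the family were smaller, at -1.15 for Lce1l, -1.07 for Lce1g, which was at background on 2 of the 5 IL-22-Fc arrays, and between -0.81 and -0.23 for the rest. Lce1a1 (-0.36) and Lce1h (-0.23) did not pass the test. The call of Lce1i (-0.33, adjusted p = 0.042, limma) was lost with any of 7 arrays left out, at adjusted p of 0.06 to 0.12, and that of Lce1d (-0.48) without control replicate 4 (adjusted p = 0.058) or IL-22-Fc replicate 1 (adjusted p = 0.051).

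Loricrin is the bulk protein of the envelope. It read 13.30, 13.18, 13.17, 13.48 and 13.37 in the control and 11.23, 10.54, 10.96, 10.96 and 10.58 with IL-22-Fc (adjusted p = 4.5e-11, limma), with no overlap between the groups. Involucrin, the early scaffold protein, read 7.69, 7.69, 7.82, 7.96 and 7.78 in the control and 5.39, 5.34, 5.74, 5.35 and 5.94 with IL-22-Fc (adjusted p = 2.2e-06, limma). Both genes were lower on every IL-22-Fc array than on any control array.

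The S100 fused-type proteins split. Filaggrin read 11.74, 10.94, 11.47, 11.51 and 11.39 in the control and 9.60, 9.65, 9.59, 10.11 and 9.70 with IL-22-Fc, and so fell on all arrays (adjusted p = 6.9e-06, limma). Repetin, a relative of filaggrin from the same cluster, went the other way, from 11.20, 10.73, 11.35, 11.34 and 10.92 to 11.93, 12.28, 12.11, 12.23 and 12.22 (change 1.05 ± 0.19 SE, adjusted p = 0.0014, limma). Hornerin, the remaining relative on the array, changed by -0.08 (adjusted p = 0.84).

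The enzymes that cross-link the envelope all rose. Transglutaminase 3, Tgm3, read 7.47, 7.46, 7.50, 7.92 and 6.74 in the control and 9.98, 9.40, 9.56, 9.21 and 9.33 with IL-22-Fc, a change of 2.08 ± 0.20 (SE, adjusted p = 6.2e-07, limma) with no overlap. Tgm1, the membrane-bound enzyme, rose by 1.25 and Tgm5 by 0.81. Cornifelin (Cnfn), an envelope component, read 10.16, 10.13, 10.25, 10.54 and 9.77 in the control and 11.86, 11.94, 11.85, 11.96 and 11.92 with IL-22-Fc. Its rise was 1.73 ± 0.24 (SE, adjusted p = 8.8e-05, limma), and the SD of its IL-22-Fc arrays was 0.05 (n = 5).

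The plakins, corneodesmosin and the proteases gave no calls. Envoplakin (Evpl, 0.34), periplakin (Ppl, 0.11) and the adhesion protein corneodesmosin (Cdsn, 0.17) did not pass, and neither did Casp14 (0.28) and Asprv1 (-0.22), the proteases of filaggrin processing, or Krtdap (0.01). The calmodulin-like protein gene Calml3 fell by 0.90 and suprabasin (Sbsn) by 0.40. Beside these values, 1 of 8 basal keratinocyte markers rose (Krt14) and 2 fell (Krt15 and Dst), and the summed level of that list was 13.71 to 13.90 with IL-22-Fc and 13.89 to 14.20 in the control. Of the neutrophil markers 1 of 6 rose (Cxcr2, 1.45) and 1 fell (Mpo, -0.47), with a summed level of 8.29 to 8.61 against 7.53 to 8.09 in the control. The median change of the neutrophil list was -0.16, so the higher sum does not stand for a rise of most of its markers. Of the adipocyte markers 1 of 4 fell (Lep, -0.81), with a summed level of 11.02 to 11.72 against 11.82 to 12.32. Neither of these sums overlapped with the control, and the part of any of these lists in the changes was not tested.

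**Figure D2:**
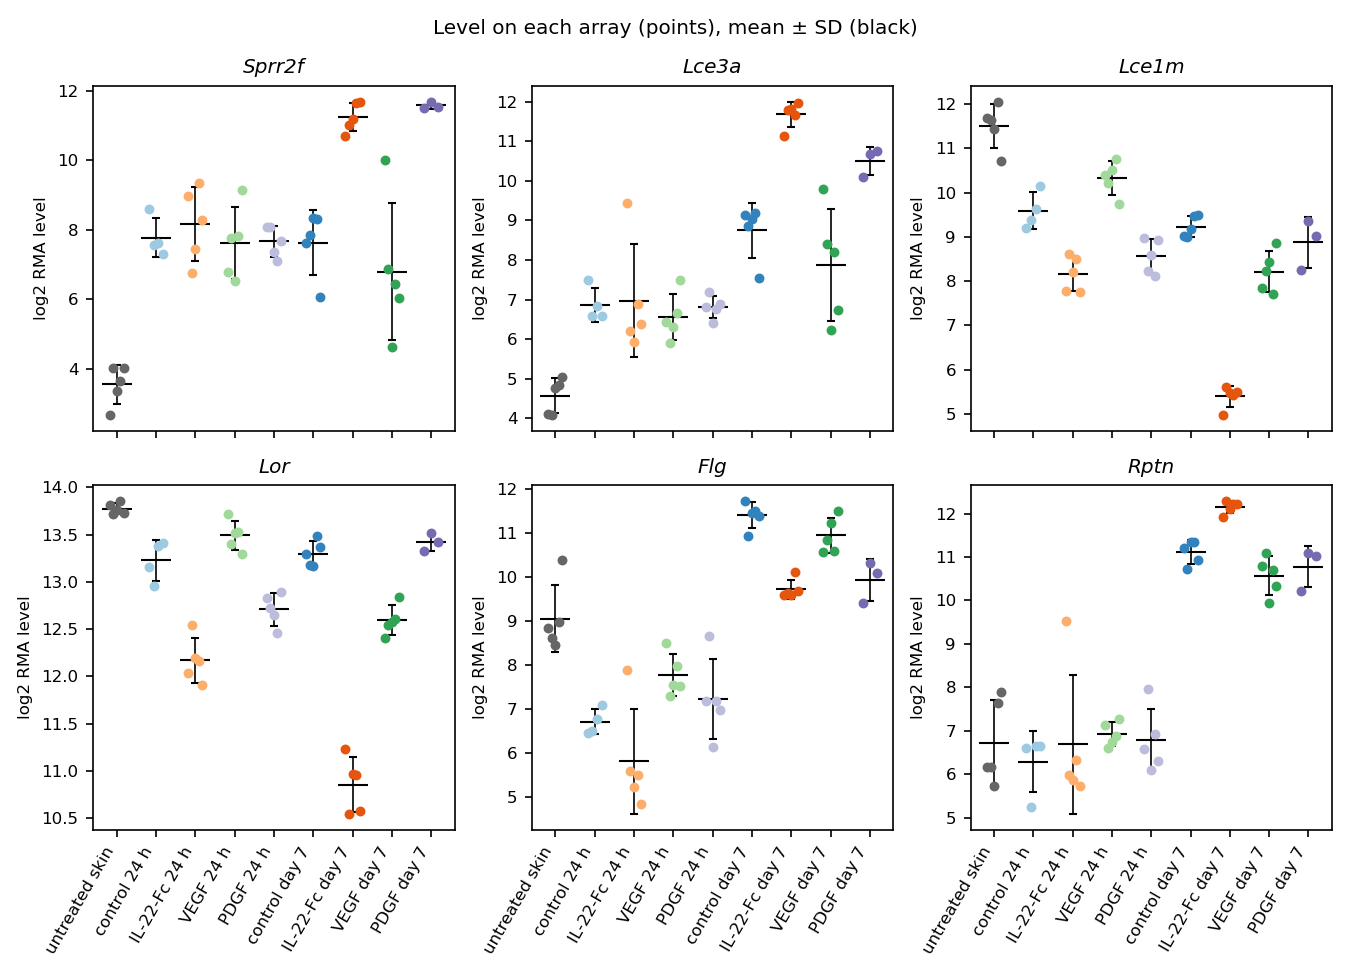
Log2 RMA level (vertical axis) of 6 genes on each array (points) in the 9 groups (horizontal axis), with the mean ± SD in black. The day 7 IL-22-Fc arrays lie above the day 7 control for Sprr2f, Lce3a and Rptn and below it for Lce1m, Lor and Flg.

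VEGF on day 7 gave a different picture: 0 of the 41 genes rose and 28 fell, where over all probe sets 5.96% rose and 8.74% fell. At an unadjusted p under 0.05, limma gave 0 higher and 35 lower, and the share of all probe sets at that threshold was not counted. The changes ran from -1.05 (Cdsn) to -0.18 (Sprr3) with a median of -0.79, and all 41 were below 0 (48.5% of all probe sets were above it). All 11 Lce1 genes fell (median -0.75), as did loricrin (-0.70), involucrin (-0.96), Hrnr (-1.04), Tgm5 (-0.84), Sbsn (-0.87) and Krtdap (-0.55).

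Corneodesmosin, which holds corneocytes together, shows the shift in a gene that IL-22-Fc left without a call. It read 10.66, 10.55, 10.53, 10.69 and 10.29 in the control and 9.64, 9.77, 9.19, 9.64 and 9.23 with VEGF, a fall of every array below the control (-1.05, SE 0.11, adjusted p = 1.2e-06, limma). The plakins Evpl (-0.98) and Ppl (-0.95) fell with it.

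The Sprr2 and Lce3 genes scattered under VEGF. Sprr2f read 10.02, 6.86, 4.64, 6.43 and 6.05 and Lce3a 9.80, 8.42, 6.24, 8.21 and 6.75, with replicate 1 in each case the highest and above every control array. Their changes of -0.84 and -0.86 did not pass (adjusted p = 0.46 and 0.26, limma), and of the 10 genes of both families only Sprr2h was called. Calls of 5 genes rested on particular arrays: Sprr2h (-0.98), Sprr1b (-0.74) and Tgm3 (-0.59) lost theirs with any of 5, 5 and 8 arrays left out, at adjusted p of 0.056 to 0.089, 0.084 to 0.14 and 0.054 to 0.16. Sprr1a (-0.66) lost it without VEGF replicate 3 (adjusted p = 0.059) or 5 (0.061), and Lce1l without control replicate 4 (0.052) or VEGF replicate 4 (0.053).

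Markers of several cell types moved in the same wounds. Of the basal keratinocyte markers 6 of 8 fell (Col17a1 by 0.94 and Itgb4 by 0.95 on the log2 scale), and the summed level of the list was 13.15 to 13.50 with VEGF against 13.89 to 14.20 in the control. Of the endothelial markers 6 of 6 rose (Emcn by 2.25, Tie1 by 1.90), with a summed level of 10.65 to 11.19 against 9.15 to 9.35. In other lists, 4 of 5 sebaceous gland, 3 of 4 adipocyte and 1 of 6 skeletal muscle markers fell. Of the macrophage markers 4 of 7 rose. In whole skin, fewer cells of a type and less RNA per cell cannot be told apart. Whether the share of keratinocytes entered the falls of the envelope genes was not tested.

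PDGF on day 7 was measured on 3 arrays of low 5′ level. Of the 41 genes 9 rose and 7 fell, against 18.9% and 16% of all probe sets, so the shares of members called (9 and 7 of 41) are near that background. With the 5′ level as a covariate none were called in either direction, and as the 3 arrays alone carry the low level, group and RNA integrity cannot be told apart. Sprr2f read 11.51, 11.69 and 11.55, above all control arrays (3.95 ± 0.73 SE, adjusted p = 0.00022, limma). Of the other Sprr2 genes only Sprr2k was called (0.75), and Sprr2i (1.22), Sprr2d (0.96), Sprr2h (0.81) and Sprr2j-ps (0.29) did not pass. The 4 Lce3 genes were higher by 1.76, 1.19, 1.36 and 1.28 for Lce3a, Lce3b, Lce3c and Lce3f. Cnfn read 11.43, 11.16 and 11.04 and was higher by 1.03.

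Filaggrin, at 9.41, 10.32 and 10.10 with PDGF, was lower than on all control arrays, by 1.47 (adjusted p = 2e-05, limma), and involucrin, at 6.07, 6.73 and 6.40, was also below them all (-1.39). Hrnr (-1.44), Casp14 (-0.82), Lce1f (-0.56), Calml3 (-0.50) and Ppl (-0.47) made up the rest of the lower genes. Lor (0.12), Lce1m (-0.35) and Tgm3 (-0.13) did not pass the test. The calls of Lce3a and Lce3f were lost without PDGF replicate 3 (adjusted p = 0.053 and 0.057), those of Cdsn (0.44) and Lce1f without PDGF replicate 1 (0.37 and -0.35, adjusted p = 0.063 and 0.061), and that of Evpl (0.40) without any of 5 arrays (0.051 to 0.18). In the same comparison 4 of 6 fibroblast markers were lower (Lum, -2.17) and 1 was higher. Lower too were 4 of 4 adipocyte markers (Adipoq, -1.57) and 3 of 5 sebaceous gland markers (Far2, -1.19). Of the macrophage markers 4 of 7 were higher (Cd68, 1.08). The basal keratinocyte list gave 2 higher and 1 lower, with a summed level of 14.08 to 14.30 against 13.89 to 14.20. The part of these lists in the changes was not tested.

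The treatments share their control arrays, so each gene's own changes are set side by side, in the order IL-22-Fc, VEGF and PDGF. Sprr2h changed by 1.45, -0.98 and 0.81, the last without a call. Tgm3 changed by 2.08, -0.59 and -0.13, the last without a call. Tgm5 changed by 0.81, -0.84 and -0.22, the last without a call. Flg changed by -1.68, -0.46 and -1.47, of which the VEGF value did not pass (adjusted p = 0.12, limma).

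The direct comparison of IL-22-Fc with VEGF on day 7 put 27 genes higher and 4 lower with IL-22-Fc, against 12.1% and 10.8% of all probe sets. The genes lower with IL-22-Fc were Lce1m (-2.82), Lor (-1.74), Ivl (-1.28) and Flg (-1.22). For the other 10 Lce1 genes the treatments differed by -0.40 to 0.48, with Lce1h (0.48) and Lce1i (0.33) called higher. The largest differences were 4.67 ± 0.62 for Sprr2i, 4.46 ± 0.63 for Sprr2f, 3.89 ± 0.44 for Sprr2j-ps and 3.80 ± 0.46 for Lce3a (SE, adjusted p = 9.6e-06, 2.1e-05, 1.2e-06 and 3.2e-06, limma).

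At 24 h, after 1 dose, few members differed from the control. With IL-22-Fc 0 genes rose and 2 fell, where 0.0726% and 0.0387% of all probe sets did so. At an unadjusted p under 0.05, limma gave 4 higher and 7 lower, again with no share of all probe sets counted. Loricrin read 13.16, 12.96, 13.38 and 13.41 in the control and 12.03, 12.55, 12.19, 12.16 and 11.91 with IL-22-Fc, lower on every array (-1.06 ± 0.13 SE, adjusted p = 0.00025, limma). Lce1m read 9.20, 9.39, 9.63 and 10.16 in the control and 7.78, 8.61, 8.21, 8.49 and 7.75 with IL-22-Fc (-1.43 ± 0.24 SE, adjusted p = 0.016, limma). Both genes thus fell at 24 h as on day 7.

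The 6 Sprr2 genes were between 0.17 and 1.26 above the control, none with a call, and Cnfn missed the threshold at 0.81 (adjusted p = 0.083, limma), with no overlap of the arrays. Replicate 1 of IL-22-Fc read 9.45 for Lce3a, 9.53 for Rptn and 7.89 for Flg, where the other 4 arrays reached at most 6.88, 6.33 and 5.60. Without it the change of Lor was -1.02 (adjusted p = 0.0015), that of Lce1m was -1.33 and lost its call (adjusted p = 0.053), and Lce3a, Rptn and Flg stood at -0.53, -0.32 and -1.42 without a call. The call of Lce1m was also lost without IL-22-Fc replicate 3 (0.05) or control replicate 3 (0.056) or 4 (0.093), and without IL-22-Fc replicate 5 Cnfn was called higher (0.90, adjusted p = 0.031).

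VEGF at 24 h gave 0 genes higher and 0 lower, against 0.126% and 0.00967% of all probe sets. PDGF at 24 h gave 0 higher and 3 lower, against 0.489% and 1.4%. At an unadjusted p under 0.05, limma gave 11 higher and 0 lower for VEGF and 1 higher and 11 lower for PDGF. The share of all probe sets at that unadjusted threshold was not counted. The 3 genes called lower with PDGF were Lce1m (-1.03), Lor (-0.52) and Sbsn (-0.45), at adjusted p of 0.031, 0.04 and 0.025 (limma). That count was 8 without control replicate 2, 0 without control replicate 3 or 4 or PDGF replicate 4, and 1 without PDGF replicate 2 or 3.

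Whether the IL-22-Fc effect itself differed between day 7 and 24 h was tested as an interaction on the 37 wound arrays. It was more positive on day 7 for 7 genes and more negative for 5, against 0.759% and 0.934% of all probe sets. The 7 were Sprr2f (3.23), Sprr2j-ps (2.99), Lce3a (2.84), Lce3b (1.80), Tgm3 (1.70), Sprr2k (1.14) and Tgm5 (0.66). The 5 were Lce1m (-2.41), Ivl (-1.94), Lor (-1.39), Lce1g (-0.97) and Calml3 (-0.88). Lce1g was at background at 24 h on all 4 control arrays and 4 of 5 IL-22-Fc arrays, so a fall at 24 h could not have been seen, and its value here restates the day 7 change. Involucrin fell on day 7 and stood at -0.30 without a call at 24 h, and the difference between these effects was itself called (adjusted p = 0.00026, limma).

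The count of 7 was 3 without control replicate 1 of 24 h and 4 without IL-22-Fc replicate 2 of 24 h. Sprr2f (adjusted p = 0.047) lost its call with any of 14 arrays left out (0.054 to 0.12), Lce3a (0.034) with any of 7 (0.05 to 0.085), Lce3b with those 2 arrays (0.054 and 0.051) and Tgm5 without that control array (0.054).

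**Figure D3:**
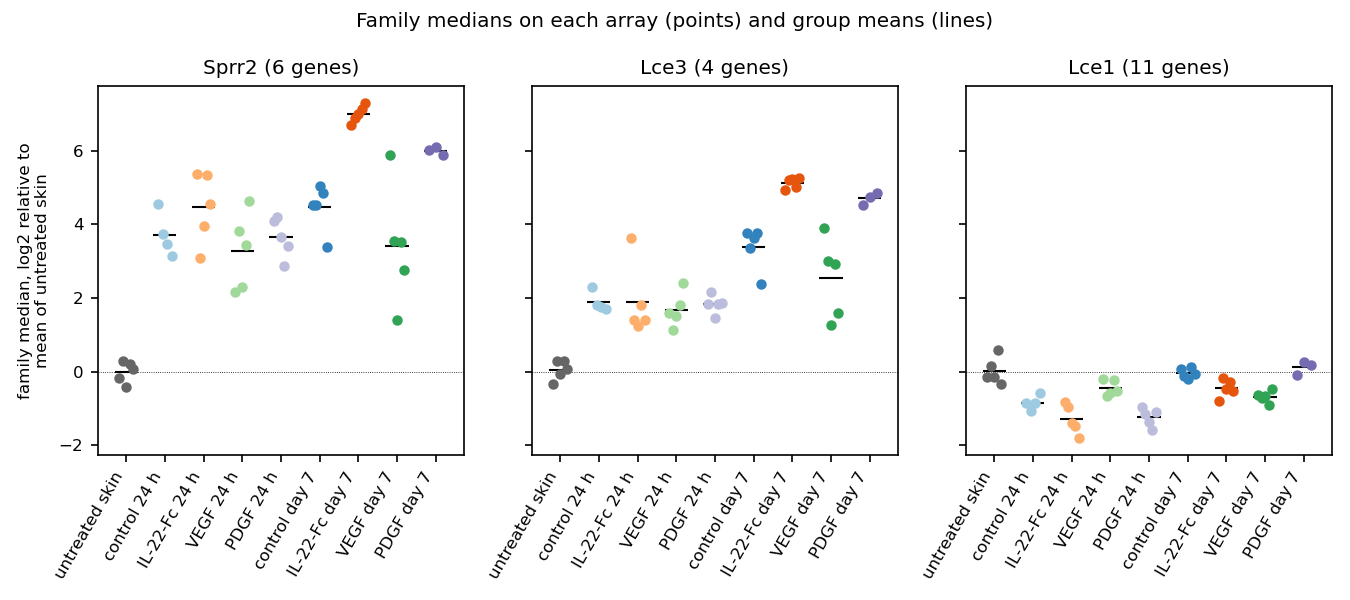
Median over the genes of the Sprr2, Lce3 and Lce1 families on each array (points), as the log2 difference from the mean of untreated skin (vertical axis), with the mean of each of the 9 groups as a line. Sprr2 and Lce3 climb from untreated skin to the wounds and lie highest with IL-22-Fc on day 7, at 7.01 and 5.13. Lce1 lies lowest at 24 h with IL-22-Fc, at -1.29, and with PDGF, at -1.235.

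The control wounds give the course against which these changes run. At 24 h, 11 of the 41 genes were higher and 19 lower than in untreated skin, against 19.3% and 20.2% of all probe sets. On day 7, 25 were higher and 5 lower, against 18.2% and 18.6%. From 24 h to day 7, 27 rose and 0 fell, against 14.1% and 16%. At an unadjusted p under 0.05 these counts were 29 and 0 (limma), with no share of all probe sets counted. Markers of other cell types moved in the same comparisons. On day 7 against untreated skin, 7 of 7 macrophage markers (Cd14 by 2.34) were higher. Of the fibroblast markers 5 of 6 were higher (Col1a1 by 2.66) and 1 was lower. Lower too were 4 of 4 adipocyte (Adipoq, -1.56), 5 of 6 skeletal muscle (Myh4, -1.28) and 4 of 8 basal keratinocyte markers (Krt15, -1.42). At 24 h, 5 of 7 macrophage (Cd14, 4.66) and 4 of 6 neutrophil markers (Mmp8, 4.49) were higher, 4 of 4 adipocyte and 5 of 6 muscle markers lower, and basal keratinocyte markers gave 2 higher and 2 lower. The summed level of hair follicle markers in untreated skin ran from 8.34 to 15.40, with 1 array far above the rest, against 8.44 to 8.53 in the day 7 control. The part of these in the changes below was not tested.

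Sprr1b is a cross-bridge protein of stressed epidermis. Untreated skin read 3.31, 8.30, 3.43, 6.74 and 5.01, and the control wounds at 24 h 11.66, 11.64, 11.13 and 11.23. On day 7 the control wounds read 12.37 ± 0.29 (SD, n = 5), 7.02 above untreated skin. The untreated arrays spread widely (SD 2.16, n = 5), 2 of them at background, yet all lay below the wounds. The SE of 0.50 and the adjusted p of 1e-13 (limma) for the day 7 difference rest on a variance pooled over all groups. They therefore do not reflect the wider spread of the untreated arrays. Sprr2f read 2.66, 4.02, 3.37, 3.66 and 4.02 in untreated skin and 8.59, 7.57, 7.62 and 7.29 at 24 h. Its change from 24 h to day 7 was -0.14 (adjusted p = 0.91, limma), and that of Sprr2d was 1.57, a call.

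Lce3a followed in steps, from 4.12, 4.08, 4.77, 4.83 and 5.05 in untreated skin to 7.49, 6.59, 6.83 and 6.57 at 24 h and 8.75 ± 0.69 (SD, n = 5) on day 7. Lce3f rose by 2.47 at 24 h and stood at 4.23 on day 7 against untreated skin. The Lce3 genes were called higher at both times, 4 of 4.

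The S100 fused-type genes and Casp14 were higher on day 7, and none of them was higher at 24 h. Filaggrin read 8.84, 8.62, 8.46, 8.98 and 10.38 in untreated skin and 6.47, 6.52, 6.79 and 7.09 at 24 h, so that it fell by 2.34, and on day 7 it was 2.35 ± 0.39 (SE) above untreated skin (adjusted p = 8e-06, limma). Repetin read 6.16, 6.17, 5.74, 7.64 and 7.90 in untreated skin and 6.60, 5.24, 6.66 and 6.66 at 24 h. It had no call at 24 h (-0.43) and was 4.39 higher on day 7 (adjusted p = 1.1e-09, limma). From 24 h to day 7 Rptn, Flg, Casp14 and Hrnr rose by 4.82, 4.69, 2.71 and 1.91.

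The Lce1 genes were lower at 24 h in 9 of 11 cases, with changes of the called genes from -0.64 (Lce1d) to -1.91 (Lce1m). On day 7, Lce1f (0.85), Lce1g (at least 2.17-fold, with untreated skin set to the background gauge) and Lce1h (0.62) were higher than in untreated skin, and Lce1l (-1.01) and Lce1m (-2.28) were lower. Lce1m read 11.69, 11.64, 11.43, 12.06 and 10.70 in untreated skin, above every wound array of the control. Loricrin stood 0.47 below untreated skin on day 7, with arrays of 13.81, 13.72, 13.76, 13.86 and 13.72 in untreated skin.

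Several smaller calls against untreated skin hung on particular arrays. At 24 h, Hrnr (-0.73) lost its call without control replicate 3 (adjusted p = 0.14) or untreated replicate 4 (0.086), Ivl (-0.70) without control replicate 3 (0.084) or untreated replicate 5 (0.062), Sprr2j-ps (1.22) without control replicate 1 (0.13) and Sprr1a (0.68) with any of 4 arrays (0.062 to 0.11). On day 7, Lce1h and Ppl (-0.34) lost theirs with any of 4 arrays (0.063 to 0.21 and 0.057 to 0.094), and without untreated replicate 5, the array of low 5′ level, the change of Lce1h was 0.28 in place of 0.62. Calls were also lost by Cnfn (0.65) with any of 3 (0.053 to 0.064) and Sprr3 (0.32) without control replicate 1 (0.061). From 24 h to day 7, the calls of Sprr2i (1.71), Tgm3 (0.67), Tgm5 (0.36), Krtdap (0.24) and Cdsn (0.40) were lost with any of 6, 7, 2, 2 and 1 arrays left out (highest adjusted p = 0.13, 0.11, 0.067, 0.1 and 0.059, limma).

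Both the IL-22-Fc effect on day 7 and the day 7 course of the control wound use the day 7 control arrays, so their values are set side by side only. Ivl and Flg stood at 1.09 and 2.35 in the control wound against untreated skin and at -2.24 and -1.68 with IL-22-Fc against the control. Lce1m and Lor stood at -2.28 and -0.47 in the wound and at -3.84 and -2.44 with IL-22-Fc. Tgm1 and Tgm5, which rose with IL-22-Fc (1.25 and 0.81), had no call in the wound (-0.10 and 0.13).

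Of the 41 genes, 29 lie in the epidermal differentiation complex on chromosome 3. In the order of that cluster the Sprr2 genes, the Lce1 genes other than Lce1m, and the Lce3 genes each form a run. Within each run the IL-22-Fc changes had the same sign. Sprr1b (0.70), Sprr3 (0.14) and Sprr1a (0.36), next to the Sprr2 run, were also positive, without a call. Ivl (-2.24) and the Lce1 run after it were negative, and the sign turned between that run and the Lce3 run. Lce3f (1.55) and Lce1m (-3.84) are separated by only 1 gene, Crct1, and Flg (-1.68) and Rptn (1.05) have only Hrnr (-0.08) of the members between them.

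**Figure D4:**
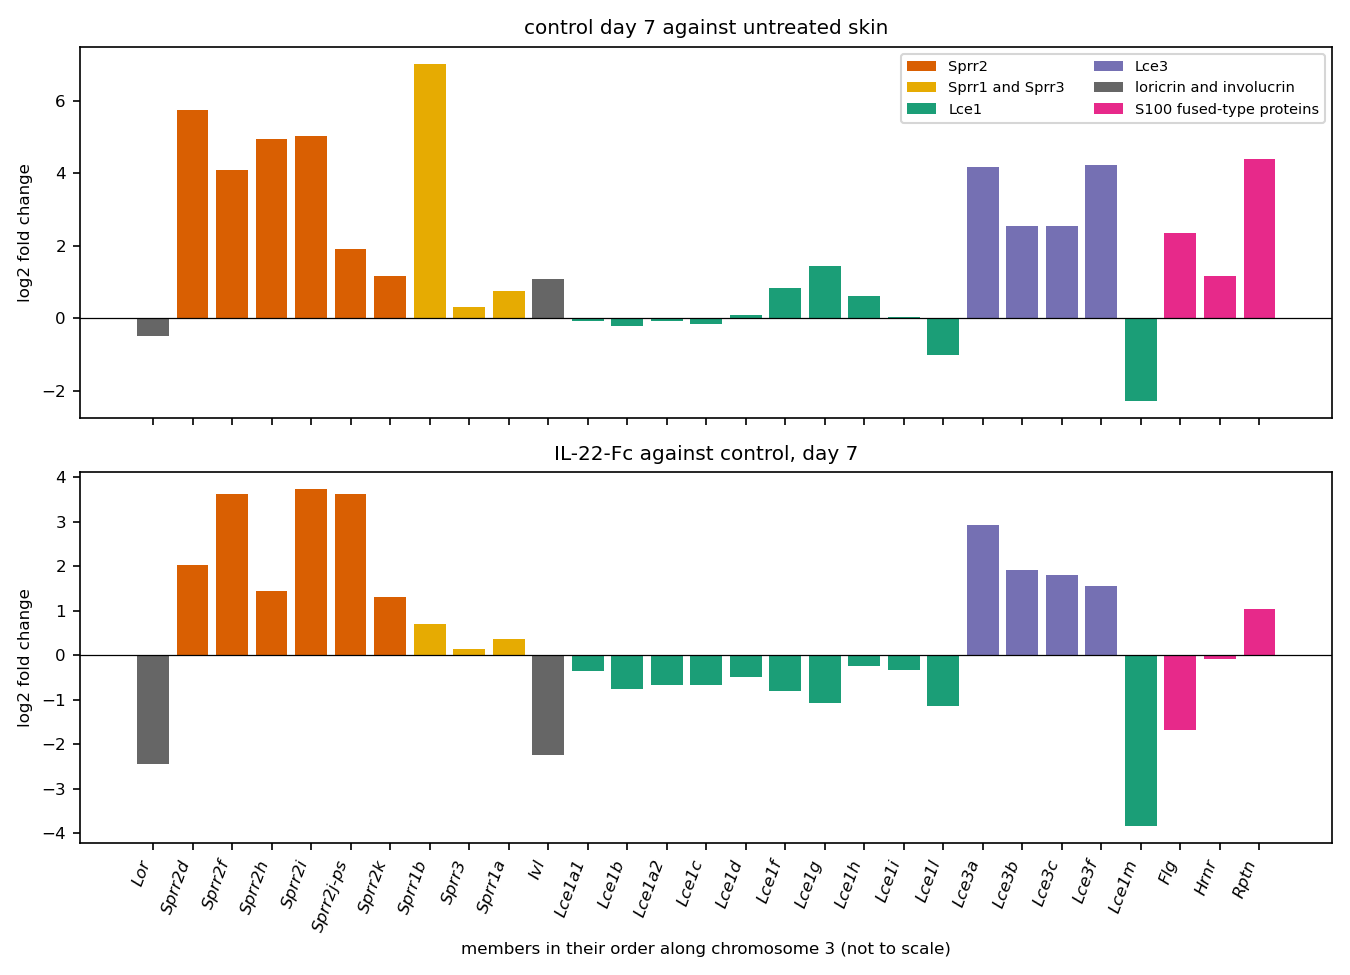
Log2 fold change (vertical axis) of the 29 members on chromosome 3 in their order along the cluster (horizontal axis, not to scale), for the control on day 7 against untreated skin (top) and IL-22-Fc against the control on day 7 (bottom), coloured by family. The Sprr2 and Lce3 bars point up in both panels, and the Lce1m bar points down in both.

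Across the 42 arrays, deviations from the group means ran together within 2 sets of genes. The Sprr2 and Lce3 genes, which both rose with IL-22-Fc on day 7, were taken as 1 set and the Lce1 genes as the other. No value was computed within the Sprr2 or the Lce3 genes alone, among other genes for comparison, or with single arrays left out. The median Pearson correlation between genes was 0.74 among the Sprr2 and Lce3 genes, 0.74 among the Lce1 genes and 0.07 between the Sprr2 and Lce3 genes on one side and the Lce1 genes on the other. Each set held 7 genes without shared-probe suffixes, and the points share array and tissue piece, so these values are a description.

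The 63 other genes of cornification, listed by function, show what moved around the envelope. With IL-22-Fc on day 7, 12 rose and 5 fell (median 0.13), against 2.81% and 2.64% of all probe sets. All 5 that fell were suprabasal keratins, of 6 measured: Krt77 (-3.59), Krt2 (-3.57) and Krt78 (-1.45) moved farthest. Of the 10 proteases and inhibitors that govern shedding, 5 rose, led by the kallikrein gene Klk6 (1.07), and the desmosomal cadherin gene Dsc1 (0.96) and the transcription factor gene Grhl3 (0.96), a regulator of barrier formation, rose too. Filaggrin-processing genes gave 0 of 4 in either direction.

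With VEGF 0 of the 63 rose and 49 fell (median -0.67), against 5.96% and 8.74% of all probe sets, including 7 of 7 desmosomal genes and 10 of 12 genes of the lipid envelope, with Alox12b (-1.09), a lipoxygenase of the lipid envelope, Gata3 (-1.06) and Scel (-1.05) farthest down. With PDGF 12 rose and 16 fell (median -0.06), against 18.9% and 16% of all probe sets, so the share that rose is near that background. The calls of the envelope genes with PDGF were all lost with the 5′ level as a covariate, which was not fitted for these 63. The desmosomal genes Dsc3 (-2.13), Dsc1 (-1.88) and Dsg1a (-1.58) were lowest and Ovol1 (0.70), Hopx (0.64) and Maf (0.64) highest. IL-22-Fc against VEGF gave 47 higher and 3 lower, against 12.1% and 10.8% of all probe sets.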

How the data were processed

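The authors hybridized RNA of mouse skin to Affymetrix Mouse430V2 arrays, normalized probe set intensities with RMA and kept the most variable probe set per Entrez gene. The deposited values are intensity on a linear scale (3.85 to 23537, median 50.8) for 20672 probe sets on 42 arrays. Their log2 was taken here, where log2 values had been assumed in the plan. The number of arrays limits the precision, since an array has no read depth. Through GEO's platform annotation, 17928 probe sets have 1 symbol, 79 several and 2665 none, and all were tested.

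limma 3.58.1 (R 4.3.3) with Benjamini-Hochberg adjustment over all probe sets was fitted to the 18 day 7 arrays, the 19 arrays of 24 h, all 42 arrays for untreated skin and the course of the control, and 37 wound arrays for the interaction, 11 comparisons in all. The fits were tested on simulated data. Any member could be named, with the 3 other cornification genes most changed in each direction per day 7 comparison and the 2 most changed markers of a list, among those called. Where 5 or fewer were called, others are named too. The members and lists were chosen with earlier results of these data known. Promoter sequences come from RefSeq, and protein sequences were not used here. Alternatives were all arrays in 1 fit, quantile normalization, median centring, array weights, a variance prior with trend and robust estimation, a filter on low values, the 5′ level as covariate, a 1.5-fold minimum, probe sets with shared probes left out, and each array left out. The lean control group was not analysed here.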

Additional observations from a re-analysis of the deposited data

Results flagged for a closer look

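Within groups of 4 or 5 arrays, 328 levels of the members were examined for an array apart from the others, and 18 held one. Chance gives about 1 in 20 groups. Of the 12 genes given by array in the text, 10 such levels were found. In IL-22-Fc at 24 h the same array, replicate 1, stood high for Flg (7.89, next 5.60), Lce3a (9.45, next 6.88), Rptn (9.53, next 6.33), Sprr1b (12.58, next 11.15) and Tgm3 (7.94, next 7.10). In the control at 24 h replicate 2 was low for Rptn (5.24, next 6.60) and high for Tgm3 (7.17, next 6.62). Control replicate 5 of day 7 was low for Lce3a (7.54, next 8.85), IL-22-Fc replicate 4 of day 7 was high for Flg (10.11, next 9.70), and untreated replicate 5, the array of low 5′ level, was high for Flg (10.38, next 8.98).

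The IL-22-Fc effect differed between day 7 and 24 h for 12 members by the interaction test in limma. It was more positive on day 7 for Sprr2f (3.23), Sprr2j-ps (2.99), Lce3a (2.84), Lce3b (1.80), Tgm3 (1.70), Sprr2k (1.14) and Tgm5 (0.66). It was more negative for Lce1m (-2.41), Ivl (-1.94), Lor (-1.39), Lce1g (-0.97) and Calml3 (-0.88). Lce1g was at background at 24 h on 4 of 4 control and 4 of 5 IL-22-Fc arrays, so its value restates the day 7 change.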

How the results depend on the processing

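No call changed direction under any alternative. With the 5′ level as covariate, PDGF gave 0 genes higher and 0 lower on day 7 and 0 lower at 24 h. With a 1.5-fold minimum the lower counts were 4 for PDGF on day 7, 1 for PDGF at 24 h and 3 for the day 7 control against untreated skin. Without the 8 genes of shared probes the lower counts were 2 for IL-22-Fc against VEGF, 0 for IL-22-Fc and 1 for PDGF at 24 h, 3 for the day 7 control against untreated skin and 3 for the interaction. PDGF at 24 h gave 7 lower with array weights and 5 with the filter, which kept 11550 probe sets and 39 members. Leaving out each array gave ranges of 0 to 1 higher and 1 to 2 lower for IL-22-Fc at 24 h, 0 to 8 lower for PDGF at 24 h and 3 to 9 higher for the interaction. The cause was not tested for these, beyond the fewer genes or arrays in some. Of the other member counts 179 stayed within 1.5 times. No paired analysis was possible because replicate numbers only name samples in order.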
